A study of Mus musculus with 8 samples.

Results

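The 10 genes described here make nicotinamide adenine dinucleotide (NAD), move its electrons or consume it: Nmrk2, Nmrk1, Nampt, Nmnat1, Nmnat3, Nnt, Sirt1, Sirt3, Cd38 and Parp1. They were chosen by name, and all 10 were found among the 55487 Ensembl genes of the deposited count table and among the 13648 genes with enough reads to be tested. The counts came from 8 RNA-seq libraries of hearts of db/db mice, whose mutated leptin receptor leads to obesity and type 2 diabetes. The 4 DIZE libraries were labelled as treated with DIZE, taken here as diminazene aceturate, and the 4 vehicle libraries as treated with vehicle. Both groups carried db/db, no library came from a lean mouse, and age, sex, background strain, dose, duration and time of collection are not given in the labels used here. The series addresses diabetic cardiomyopathy and oxidative stress under this treatment. The labels do not say that each library was a separate animal, so the p-values measure the spread between these libraries, which may be technical.

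NAD carries electrons from fuel breakdown to the mitochondrial respiratory chain and is also broken down as a substrate by sirtuins, poly(ADP-ribose) polymerases and CD38, so cells have to remake it. Most tissues remake it from nicotinamide through NAMPT, while the nicotinamide riboside kinases NMRK1 and NMRK2 reach the same intermediate, nicotinamide mononucleotide, from nicotinamide riboside, and the NMNAT enzymes turn it into NAD. Nmrk2 is the kinase of striated muscle, also known as the muscle integrin-binding protein, and its mRNA is known to be raised in several mouse models of cardiomyopathy, in which Nampt is often reduced. These statements are background and not results of these libraries.

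None of the 10 genes passed the quasi-likelihood test of edgeR at 0.05, with p-values adjusted by Benjamini and Hochberg's method over all tested genes. Across all tested genes 5 passed, 0.0366%, of which 3 were higher (0.022%) and 2 lower (0.0147%) in DIZE libraries. Nmrk2 stood apart from the other members, averaging 51.0 ± 10.7 CPM in DIZE libraries and 24.6 ± 7.51 CPM in vehicle libraries (SD, n = 4 each; CPM is the count relative to all reads in tested genes times the TMM factor). Its log2 fold change of DIZE over vehicle was 1.05 ± 0.23 (SE), a fold of 2.07, with an adjusted p of 0.0888. Of the 10 genes, 6 had a higher and 4 a lower fitted level in DIZE libraries. The members' median log2 fold change was 0.10, beside -0.01 over all tested genes. Both the 6 and this median include Nnt, whose row cannot be read for the reason given below. At an unadjusted p under 0.05 there were 2 members, Nmrk2 and Parp1, where 19.4% of all tested genes met that limit. Only Nmrk2 of the 10 members had no overlap between the groups, and 7.17% of all tested genes lay wholly higher and 5.26% wholly lower in DIZE libraries. DESeq2 called 1 of the 10 members, Nmrk2, among 4.45% of its genes called, and limma-voom called 0 of the 10 and 0.0293% of all genes.

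Total counts were 8042396 to 10161623 in DIZE libraries and 7447664 to 10056759 in vehicle libraries, so that 1 CPM stood for 7.458 to 10.26 reads. The cardiac label held: the 7 cardiomyocyte markers were all tested, and summed to 39660 to 44970 CPM in DIZE libraries and to 25340 to 43890 CPM in vehicle libraries. Vehicle 1 had the lowest cardiomyocyte sum and the highest atrial sum, 810 CPM, beside 13.6 to 130.5 CPM in DIZE libraries and 35.3 to 314 CPM in the other vehicle libraries. Vehicle 2 held 1549 CPM of 4 liver markers, against at most 7.16 CPM in every other library. Vehicle 4 held 1430 CPM of 10 interferon-response genes, against 122.5 to 264.9 CPM in DIZE libraries and 140.1 to 273.4 CPM in the other vehicle libraries. The 6 erythroid markers summed to 8.95 to 78.4 CPM in DIZE libraries and 101.3 to 210.3 CPM in vehicle libraries, without overlap. Genes rich in G and C tended to higher log2 fold changes: the median was 0.23 in the tenth of genes with the highest GC content and -0.17 in the tenth with the lowest. In bulk tissue, fewer cells of a type and less RNA per cell cannot be told apart.

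Promoter sequence is shown for the kinase pair, whose ratio lay apart between the groups as Nmrk2 alone did. It is also shown for Sirt1, the member with the most copies of the clock motif CACGTG, the E-box. Each is 300 bases, 250 before the RefSeq start and 50 after it, in GRCm38.p6, 5′ to 3′ on the gene's strand. Capitals mark TATAAA in Nmrk2 and CACGTG in Sirt1. The windows are chr10:81201988-81202287 on the minus strand for Nmrk2, chr19:18631766-18632065 on the plus strand for Nmrk1 and chr10:63338986-63339285 on the minus strand for Sirt1.
Nmrk2: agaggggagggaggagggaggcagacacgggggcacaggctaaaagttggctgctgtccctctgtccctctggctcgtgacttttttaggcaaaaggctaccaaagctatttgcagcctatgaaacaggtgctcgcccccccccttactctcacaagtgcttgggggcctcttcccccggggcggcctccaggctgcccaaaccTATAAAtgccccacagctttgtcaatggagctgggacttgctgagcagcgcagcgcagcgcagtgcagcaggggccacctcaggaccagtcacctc
Nmrk1: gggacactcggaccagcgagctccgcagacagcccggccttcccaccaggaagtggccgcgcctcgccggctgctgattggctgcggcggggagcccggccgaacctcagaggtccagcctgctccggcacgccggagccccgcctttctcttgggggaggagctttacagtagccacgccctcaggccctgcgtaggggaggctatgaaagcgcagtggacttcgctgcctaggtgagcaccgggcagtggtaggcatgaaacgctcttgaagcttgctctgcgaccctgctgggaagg
Sirt1: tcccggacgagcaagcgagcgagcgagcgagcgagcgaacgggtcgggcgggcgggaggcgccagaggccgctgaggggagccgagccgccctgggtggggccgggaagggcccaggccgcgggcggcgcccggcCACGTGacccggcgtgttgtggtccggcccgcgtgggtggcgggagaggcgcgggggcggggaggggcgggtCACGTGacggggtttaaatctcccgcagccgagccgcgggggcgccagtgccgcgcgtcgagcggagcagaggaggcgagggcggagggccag
Nmrk2 was the only member with TATAAA on either strand, at -46 from the start, in a search of 11 windows that covered 9 of the 10 members. That motif occurs in 13.6% of 32851 RefSeq mouse windows of the same length. CACGTG, which reads the same on both strands, occurred at -115 and -43 in Sirt1 and at -49 in Parp1, and in 7.15% of all windows. The windows of Nmrk2, Nmrk1, Nampt, Nmnat1, Nmnat3, Sirt3 and Cd38 did not hold these letters. The looser CANNTG, which includes every CACGTG, occurs in 72.3% of windows and was found at -125 and -97 in that of Nmrk2. The Sirt1 gene model in GENCODE reaches farther upstream than this window, to position 63381704 of chromosome 10. That of Nampt starts at 32819545 of chromosome 12, upstream of its window, which begins at 32820085. The models of Nmnat3 and Cd38 also begin upstream of their windows. Sequence outside the windows was not searched.

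Nmrk2 (ENSMUSG00000004939, GRCm38 chromosome 10, 81198170 to 81202051, minus strand, 1854 exonic bases) had 61.0, 36.7, 49.2 and 57.1 CPM in DIZE 1 to 4 and 29.4, 15.5, 32.0 and 21.7 CPM in vehicle 1 to 4. Every DIZE library lay above every vehicle library, and the nearest pair was DIZE 2 and vehicle 3. These levels rest on 279 to 586 reads in DIZE libraries and 121 to 286 reads in vehicle libraries. An unadjusted p as small as that of Nmrk2, 0.000658, was reached by 92 of the tested genes, 0.674%. A log2 fold change at least as high was reached by 54, 0.396%. The estimate kept its sign and stayed between 0.89 and 1.20 in all 19 alternative settings, and the adjusted p ranged from 0.00223 to 0.583. It passed 0.05 in 3 of them, which were DESeq2 (adjusted p = 0.00223), no filter on low counts (adjusted p = 0.0492, with 1.37% of all genes called) and the 4 libraries without the letters db in their titles (adjusted p = 0.0229, with 9.57% called). Between the libraries with db in their titles the log2 fold change was 1.13, with an adjusted p of 0.583, and between those without it 0.99, both in 2 libraries against 2. What the title forms stand for is not given. Without vehicle 2, the library with liver markers and the lowest Nmrk2, it was 0.89 with an adjusted p of 0.0537.

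**Figure D1:**
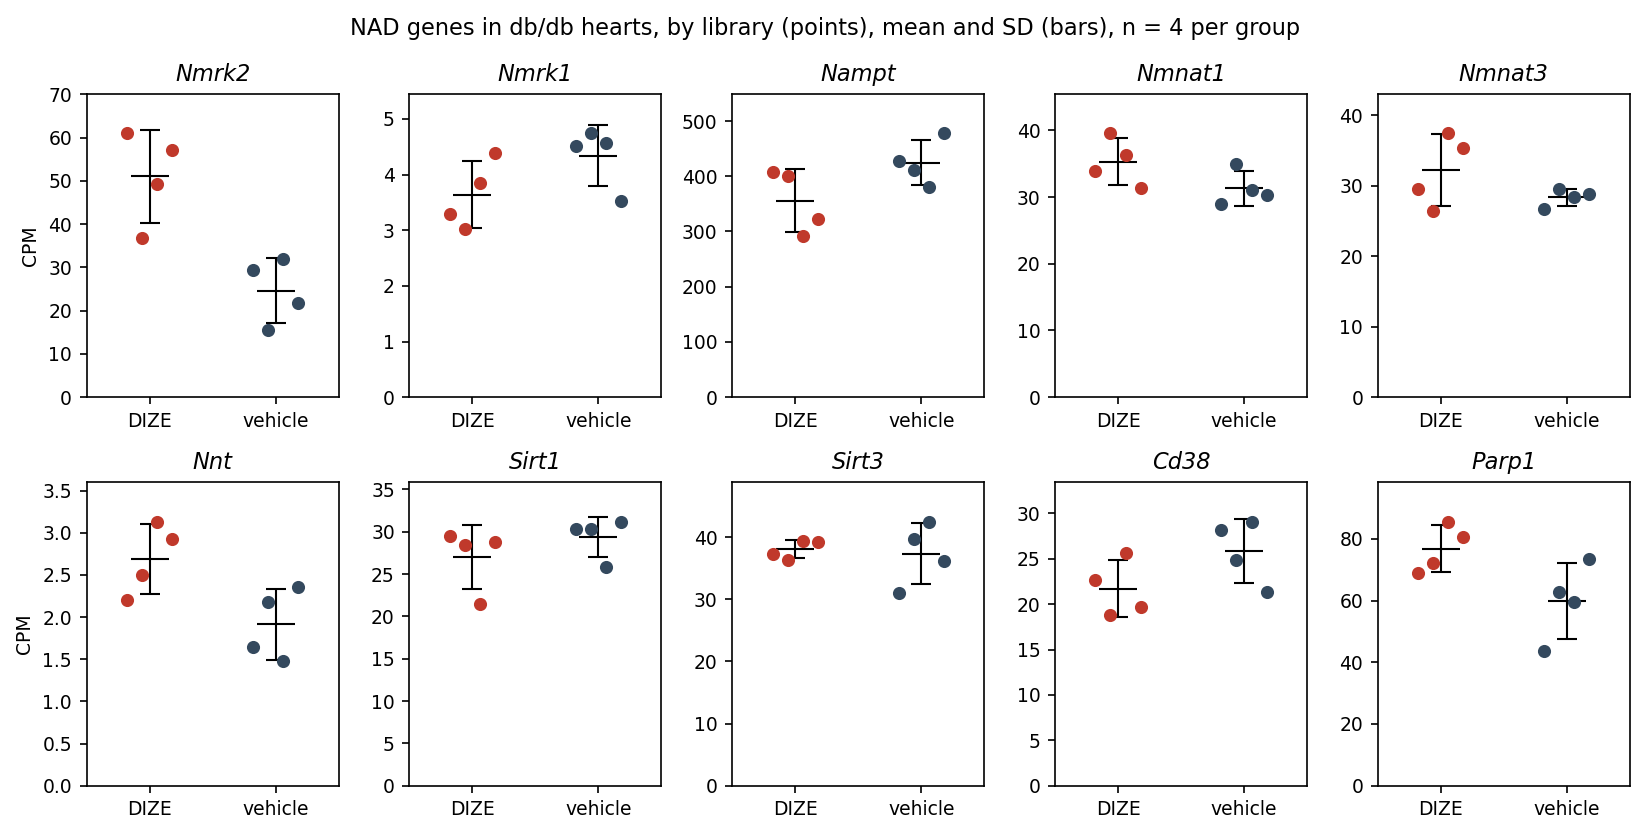
CPM of the 10 NAD genes in each library, with DIZE on the left and vehicle on the right of each panel; points are libraries, long bars the mean and whiskers the SD of 4 libraries, and each axis starts at 0. Nmrk2, at 36.7 to 61.0 CPM in DIZE libraries and 15.5 to 32.0 CPM in vehicle libraries, is the panel in which the groups do not overlap.

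The last exon of Nmrk2 shares 270 bases with Atcayos, an antisense gene on the opposite strand, which is 14.6% of Nmrk2's exonic length. The Atcayos block that does so is 1236 bases long and runs 966 bases past the annotated 3′ end of Nmrk2. The library kit marks strand, but the counts do not show it. Of 439 genes lying wholly inside exons of opposite-strand genes, 2 had any read (0.456%). Among antisense genes that share no exonic base it was 659 of 1194 (55.2%). These sets differ in gene type, since 74 of the 439 genes were of type antisense. How reads in the shared 270 bases were assigned is not given, and reads of Nmrk2 past its annotated end cannot be told apart from those of Atcayos. Atcayos had 94.98, 70.5, 75.8 and 128.4 CPM in DIZE 1 to 4 and 62.6, 72.0, 53.9 and 72.9 CPM in vehicle 1 to 4. Its groups overlapped, and its log2 fold change was 0.50 ± 0.19 (adjusted p = 0.185). Within libraries the ratio of Nmrk2 to Atcayos averaged 0.564 ± 0.0992 in DIZE libraries and 0.394 ± 0.170 in vehicle libraries (SD, n = 4 each), and it overlapped. Atcay, a neuronal gene that was used as a marker, had 5.86 to 31.9 CPM in DIZE libraries and 5.54 to 9.71 CPM in vehicle libraries. It was highest in DIZE 4, where Atcayos was highest too. Of the other neuron markers, Tubb3 had 0.707 to 1.18 CPM in DIZE libraries and 1.03 to 2.05 CPM in vehicle libraries. Snap25 had no read in any library, and Syt1 had 1 read, in DIZE 2. The 9 skeletal-muscle markers, from another tissue with high Nmrk2, summed to 2.76 to 4.68 CPM in DIZE libraries and 2.45 to 4.29 CPM in vehicle libraries, and Myh4 had no read in any.

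**Figure D2:**
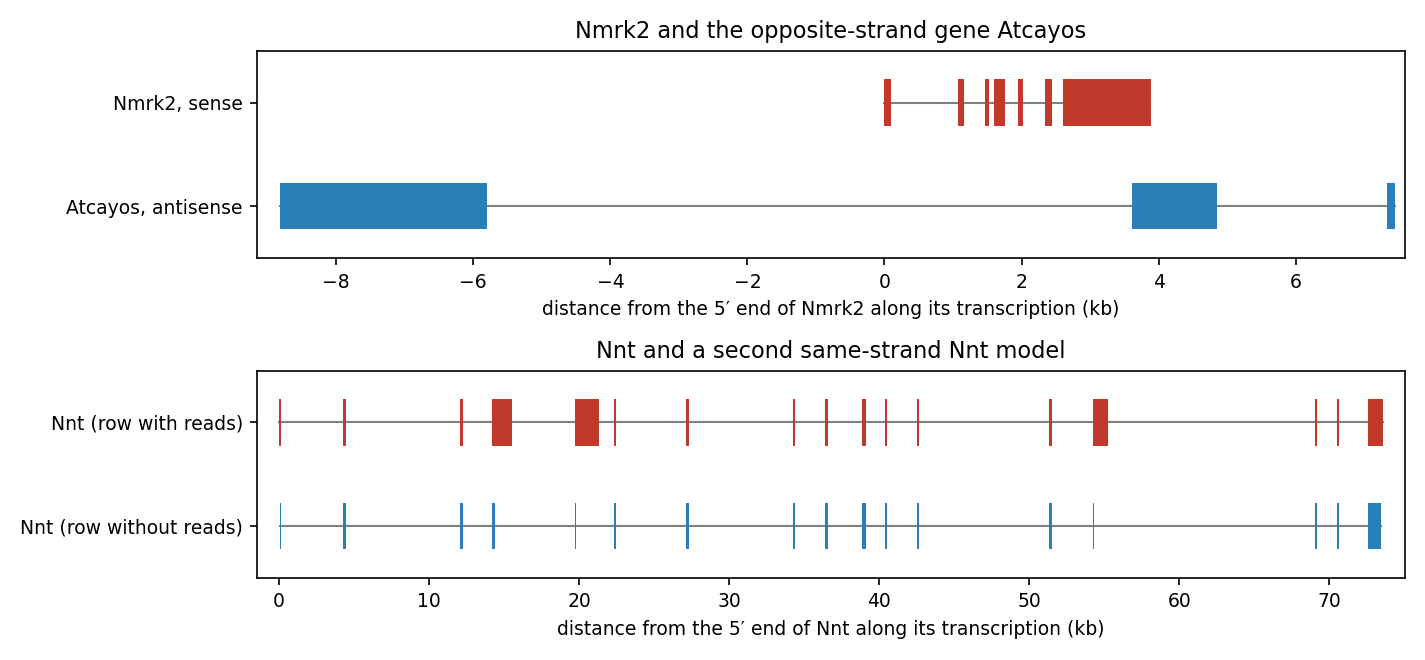
Exonic blocks (boxes) of Nmrk2 and the opposite-strand Atcayos, and of the 2 gene models named Nnt, against the distance in kb from the 5′ end of Nmrk2 or Nnt along its transcription. The end of the last Nmrk2 exon overlaps an Atcayos block over 270 bases, and all 17 blocks of the Nnt row with reads share bases with the second model.

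Nmrk1, the more widely expressed kinase, was low. It had 3.30, 3.03, 3.84 and 4.39 CPM in DIZE 1 to 4 and 4.51, 4.75, 4.56 and 3.53 CPM in vehicle 1 to 4, from 23 to 45 reads in DIZE libraries and 34 to 44 reads in vehicle libraries. The groups overlapped, and the log2 fold change was -0.24 ± 0.21 (adjusted p = 0.55). It was -0.06 with the GC and length trends removed, -0.54 among the libraries with db in their titles and 0.04 among those without it. At this depth a difference of that size was within its counting and replicate error. The ratio of Nmrk2 to Nmrk1 was 18.5, 12.1, 12.8 and 13.0 in DIZE 1 to 4 and 6.50, 3.27, 7.03 and 6.14 in vehicle 1 to 4. The ratio averaged 14.1 ± 2.96 in DIZE libraries and 5.73 ± 1.68 in vehicle libraries (SD, n = 4 each), and the groups did not overlap. Nmrk2 alone lay apart as well, so the ratio is not separate evidence. Per exonic kilobase, the kinases' mean levels stood in a ratio of 28.1 in DIZE libraries and 11.4 in vehicle libraries.

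Nampt, the rate-limiting enzyme of salvage from nicotinamide, had 406.8, 400.8, 292.6 and 322.8 CPM in DIZE 1 to 4 and 427.2, 412.2, 379.9 and 478.1 CPM in vehicle 1 to 4. DIZE 3 and 4 were the lowest libraries, while DIZE 1 and 2 lay among the vehicle libraries. The means were 355.7 ± 56.9 CPM in DIZE libraries and 424.3 ± 40.9 CPM in vehicle libraries (SD, n = 4 each), with a log2 fold change of -0.25 ± 0.13 (adjusted p = 0.314). Nampt lies in the tenth of genes with the lowest GC content, and with the trends on GC content and length removed the estimate was -0.11. Among the libraries with db in their titles it was -0.05 (adjusted p = 0.937), and among those without it -0.48 (adjusted p = 0.0427). Both fits set 2 libraries against 2, and the fit without db in the titles called 9.57% of all its genes. The difference between the title forms was not tested. Vehicle 4, the library with the interferon genes, had the highest Nampt, and without it the estimate was -0.19. The ratio of Nmrk2 to Nampt averaged 0.147 ± 0.0384 in DIZE libraries and 0.0590 ± 0.0214 in vehicle libraries (SD, n = 4 each), without overlap. This ratio, too, rests on Nmrk2, which lay apart alone.

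**Figure D3:**
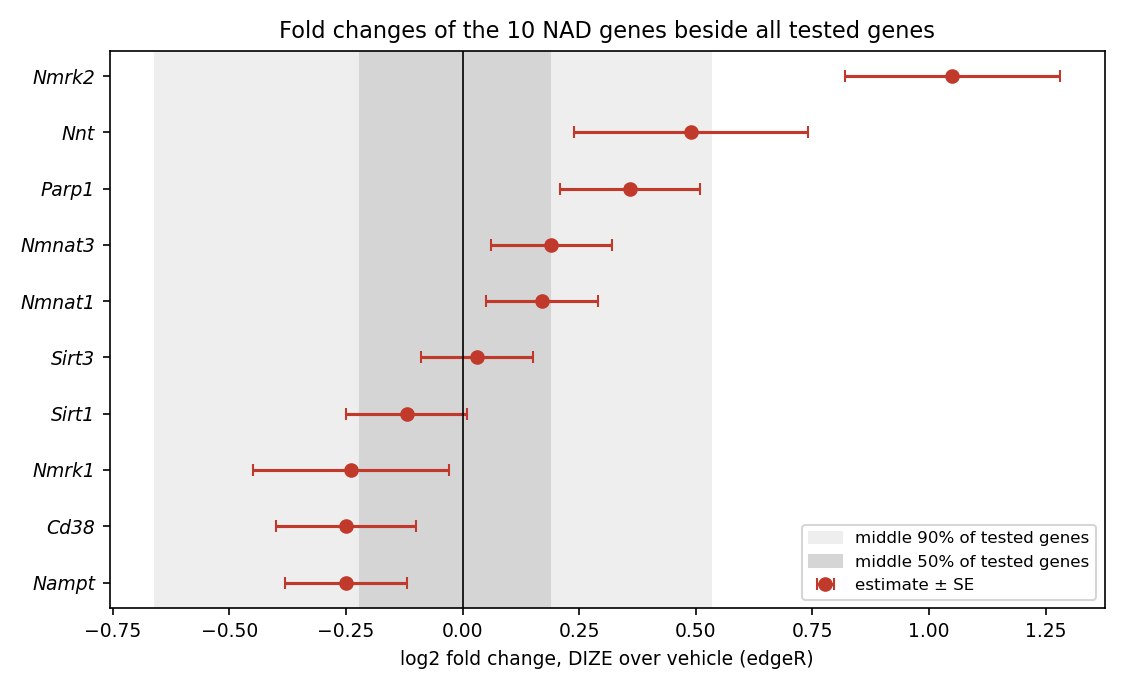
Log2 fold change of DIZE over vehicle for each NAD gene from edgeR (points, with whiskers of 1 SE), over bands that hold the middle 50% (-0.22 to 0.19) and the middle 90% (-0.66 to 0.53) of all tested genes. Nmrk2 at 1.05 lies outside the outer band and the 9 other genes inside it. The Nnt point comes from a row that cannot be read, as the text describes.

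The NMNAT enzymes complete NAD, and neither differed beyond its spread. Nmnat1, the nuclear enzyme, had 33.9, 39.6, 36.4 and 31.4 CPM in DIZE 1 to 4 and 28.9, 35.0, 31.1 and 30.3 CPM in vehicle 1 to 4, a log2 fold change of 0.17 ± 0.12 (adjusted p = 0.436). Nmnat3, the mitochondrial enzyme, had 29.5, 26.4, 37.5 and 35.4 CPM in DIZE 1 to 4 and 26.7, 29.5, 28.4 and 28.8 CPM in vehicle 1 to 4, a log2 fold change of 0.19 ± 0.13 (adjusted p = 0.450). Both genes overlapped between the groups. Nmnat3 was highest in DIZE 3 and 4, the pair with the lowest Nampt. Its log2 fold change was 0.00 between the libraries with db in their titles and 0.35 between those without it (adjusted p = 0.105).

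Nnt, the inner-membrane transhydrogenase that makes NADPH from NADH, cannot be read from this table. The reference holds a pair of same-strand models with this symbol. The second (ENSMUSG00000116207) lies wholly inside exons of the first (ENSMUSG00000025453), shares 3339 of its 7037 exonic bases and had 0 reads in every library. The first row, which can take reads only from its 3698 unshared bases if shared reads were left out, held 18, 19, 31 and 30 reads in DIZE 1 to 4 and 16, 17, 11 and 24 reads in vehicle 1 to 4. It came to 2.20 to 3.13 CPM in DIZE libraries and 1.48 to 2.35 CPM in vehicle libraries, with a log2 fold change of 0.49 ± 0.25 (adjusted p = 0.307). The strain C57BL/6J, the source of the reference genome, carries a deletion within Nnt, and the labels used here do not name the background strain.

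Neither of the sirtuins, NAD-dependent deacylases, differed beyond its spread. Sirt1, mainly nuclear, had 29.5, 28.4, 21.4 and 28.8 CPM in DIZE 1 to 4 and 30.3, 30.3, 25.9 and 31.2 CPM in vehicle 1 to 4. DIZE 3 stood below the other libraries, and the log2 fold change was -0.12 ± 0.13 (adjusted p = 0.636), and -0.02 without DIZE 3. Sirt3, the main mitochondrial deacetylase, had 37.4, 36.3, 39.4 and 39.3 CPM in DIZE 1 to 4 and 31.1, 39.6, 42.5 and 36.2 CPM in vehicle 1 to 4. The DIZE values lay inside the vehicle range, and the log2 fold change was 0.03 ± 0.12 (adjusted p = 0.915). Sirt3 shares 418 exonic bases with Ric8a and 342 with Psmd13, both on the opposite strand. Those neighbours had log2 fold changes of -0.12 (adjusted p = 0.668) and 0.15 (adjusted p = 0.490).

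Of the consumers, Parp1, which builds poly(ADP-ribose) at DNA breaks, had 68.9, 72.2, 85.6 and 80.5 CPM in DIZE 1 to 4 and 43.5, 62.8, 59.7 and 73.5 CPM in vehicle 1 to 4. Vehicle 1 was the lowest and vehicle 4 lay among the DIZE libraries. The means were 76.8 ± 7.64 CPM in DIZE libraries and 59.9 ± 12.4 CPM in vehicle libraries (SD, n = 4 each), a log2 fold change of 0.36 ± 0.15 (adjusted p = 0.233). Without vehicle 1, the library with the lowest cardiomyocyte sum, it was 0.23 (adjusted p = 0.353), and with the GC and length trends removed 0.27. Cd38, the main NAD glycohydrolase of mammalian tissue, had 22.7, 18.8, 25.7 and 19.7 CPM in DIZE 1 to 4 and 28.2, 24.9, 29.1 and 21.4 CPM in vehicle 1 to 4. Its groups overlapped, with a log2 fold change of -0.25 ± 0.15 (adjusted p = 0.363) that was -0.12 with the GC and length trends removed. Cd38 is known in immune and endothelial cells. The 8 macrophage markers summed to 562.0 to 614.6 CPM in DIZE libraries and 592.7 to 1113 CPM in vehicle libraries, and the 6 endothelial markers to 1338 to 1865 CPM in DIZE libraries and 1512 to 2170 CPM in vehicle libraries. Their part in the Cd38 values was not tested.

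Per exonic kilobase over all 8 libraries, Nampt was the highest of the 10 genes at 77.2 CPM per kb, and no other gene came within its range. Nmrk2 at 20.4, Parp1 at 12.9 and Nmnat1 at 10.98 CPM per kb followed, with neighbouring ranges that overlap. Sirt3, Cd38, Nmnat3 and Sirt1 formed an overlapping set from 6.32 down to 5.29 CPM per kb, below the range of Nmnat1. Nmrk1 at 1.08 CPM per kb was lower than all of these in every library. Nnt, at 0.327 CPM per kb by its whole exonic length, is the row limited by its double model. In vehicle libraries Nmrk2, at 13.3 CPM per kb on average, lay near Parp1, and in DIZE libraries it averaged 27.5 CPM per kb.

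**Figure D4:**
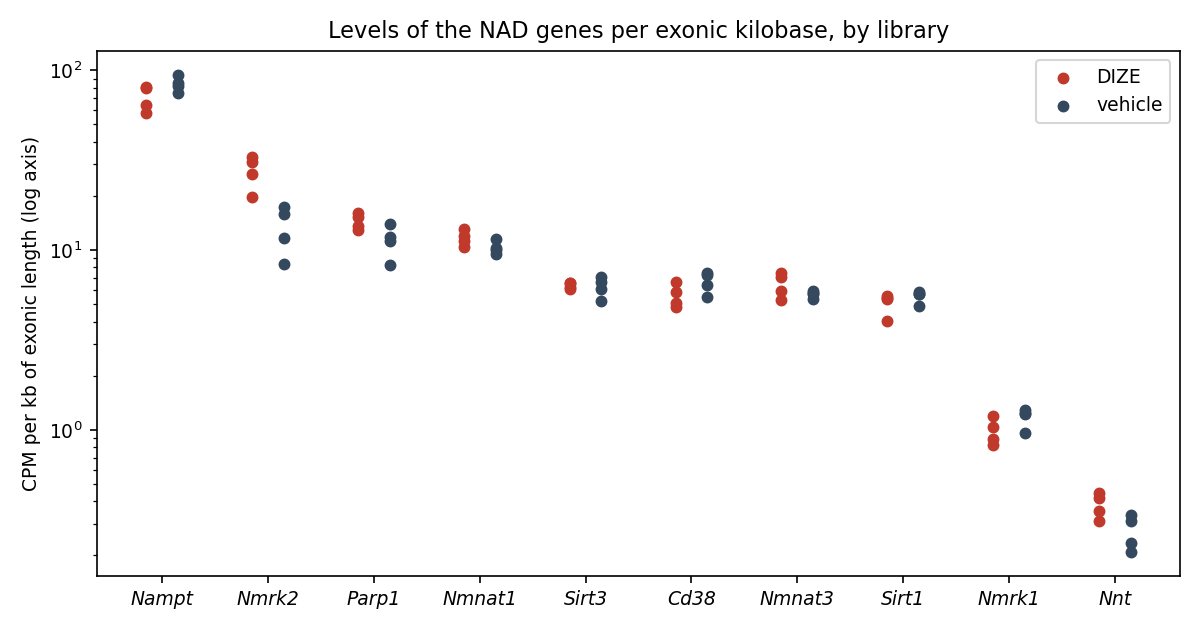
Level of each NAD gene in each library as CPM per kb of exonic length on a log axis, with DIZE points left of vehicle points and genes ordered by their mean over 8 libraries. Nampt lies at 57.9 to 94.6, Nmrk2 at 8.37 to 32.9 and Nmrk1 at 0.820 to 1.29 CPM per kb.

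Other enzymes of NAD salvage, transport and phosphorylation were described from a textbook list of 14 genes, of which 11 were tested, 0 passed the adjusted test and 3 had an unadjusted p under 0.05, beside 19.4% of all tested genes. Their median log2 fold change was 0.02. Nt5e, whose product CD73 cleaves extracellular nucleotides including nicotinamide mononucleotide, had 47.9, 42.8, 29.3 and 32.3 CPM in DIZE 1 to 4 and 29.2, 26.9, 24.4 and 18.7 CPM in vehicle 1 to 4. The groups lay apart by a narrow margin, beside 7.17% of all tested genes wholly higher in DIZE libraries. The log2 fold change of Nt5e was 0.61 ± 0.19 (adjusted p = 0.137). Naprt, which starts synthesis from nicotinic acid, had a log2 fold change of 0.33 (adjusted p = 0.301), and 0.14 with the GC and length trends removed. Pnp, a phosphorylase that also acts on nicotinamide riboside, had -0.64 (adjusted p = 0.231). Nnmt, which methylates nicotinamide and is abundant in liver, had 3.09 ± 0.286 CPM in DIZE libraries and 5.40 ± 2.62 CPM in vehicle libraries (SD, n = 4 each). Nnmt had 6.465, 8.59, 3.49 and 3.04 CPM in vehicle 1 to 4, so it was also high in vehicle 1, where liver markers summed to 2.155 CPM. Its log2 fold change was -0.80 (adjusted p = 0.212), and -0.50 without vehicle 2.

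Synthesis of NAD from tryptophan, chiefly a liver pathway, was close to unread in these hearts outside vehicle 2. Of its 9 genes only Afmid had enough reads to be tested, with a log2 fold change of -0.07. Tdo2, the first enzyme in liver, had 3, 0, 0 and 1 reads in DIZE 1 to 4 and 3, 381, 4 and 2 reads in vehicle 1 to 4. Qprt, which makes the pathway's NAD precursor from quinolinate, had 1, 2, 6 and 0 reads in DIZE 1 to 4 and 5, 54, 4 and 2 reads in vehicle 1 to 4. Kmo, Kynu and Haao were highest in vehicle 2 as well, with 78, 33 and 72 reads there, against at most 13 reads of any of them in every other library. Albumin (Alb) had 18, 0, 1 and 5 reads in DIZE 1 to 4 and 17, 10508, 0 and 65 reads in vehicle 1 to 4. The interferon-inducible Ido1 was highest in vehicle 4 instead, with 41 reads against at most 5 in any other library.

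**Figure D5:**
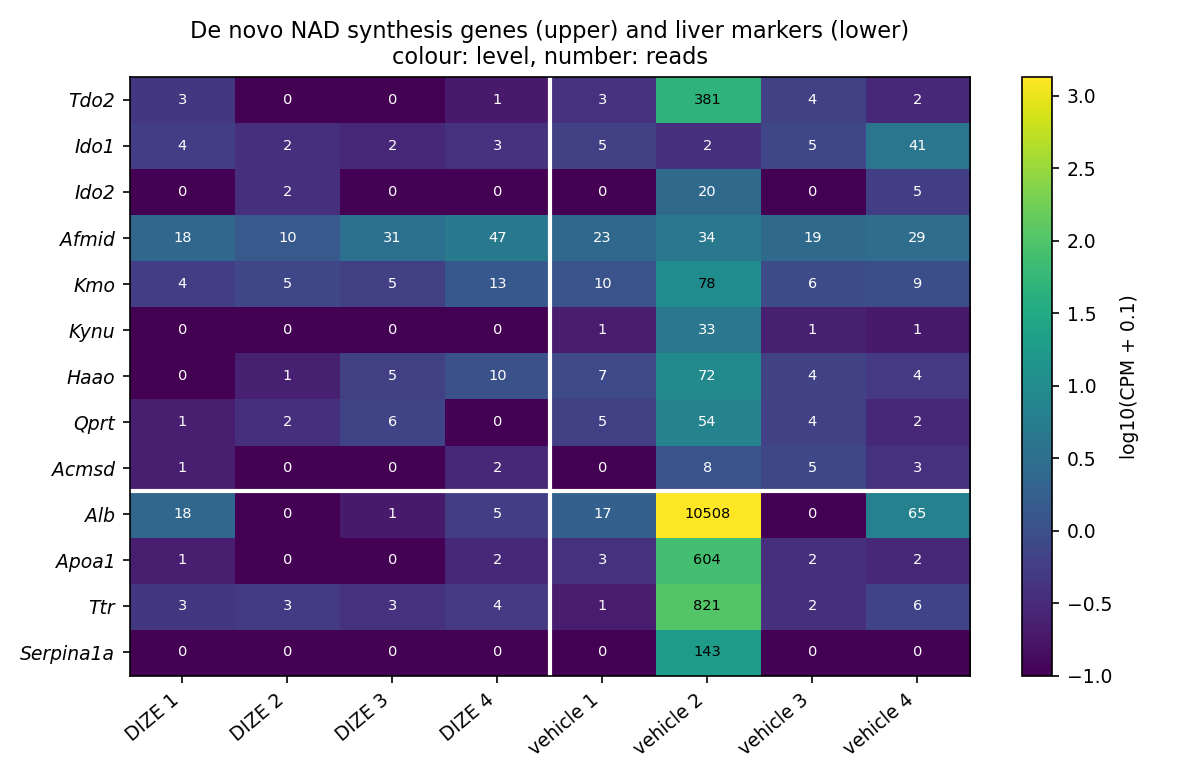
Reads (numbers) and level as log10 of CPM plus 0.1 (colour) of 9 genes of NAD synthesis from tryptophan and 4 liver markers, in DIZE 1 to 4 and then vehicle 1 to 4. The reads of Tdo2 (381 in vehicle 2), Kmo, Kynu, Haao and Qprt are concentrated in vehicle 2, where Alb has 10508.

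The 5 other sirtuins were all tested and 0 passed. Their median log2 fold change was 0.25. Sirt6, a chromatin deacylase, had 10.4, 10.5, 12.7 and 11.7 CPM in DIZE 1 to 4 and 5.75, 9.11, 9.25 and 8.04 CPM in vehicle 1 to 4. Its groups did not overlap, beside 7.17% of all tested genes wholly higher in DIZE libraries. The log2 fold change was 0.50 ± 0.18 (adjusted p = 0.171), 0.33 with the GC and length trends removed and 0.37 without vehicle 1. Sirt5, Sirt4 and Sirt2 had 0.25 (adjusted p = 0.274), 0.28 and 0.14. Of 19 other NAD-consuming enzymes, 18 were tested, 0 passed and the median was -0.06. At an unadjusted p under 0.05 there were 8 of the 18, beside 19.4% of all tested genes, and 1 lay wholly higher and 4 wholly lower in DIZE libraries, beside 7.17% and 5.26%. Parp14, a mono-ADP-ribosyltransferase induced by interferon, had 29.7, 22.2, 20.7 and 26.2 CPM in DIZE 1 to 4 and 48.2, 26.0, 48.0 and 107.8 CPM in vehicle 1 to 4. It was highest in vehicle 4, the library with 1430 CPM of interferon-response genes. Its log2 fold change was -1.22 ± 0.36 (adjusted p = 0.137), and -0.72 without vehicle 4. It was -0.51 among the libraries with db in their titles. Parp14 passed without vehicle 2 (adjusted p = 0.0388) and by DESeq2 (adjusted p = 0.0181), which called 4.45% of its genes. Parp11, of the same family, had a log2 fold change of -0.69 (adjusted p = 0.145) and Parp16, of the endoplasmic reticulum, one of 0.62 (adjusted p = 0.145), both with groups apart. Parp8 had 0.46 (adjusted p = 0.146).

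A list of 12 genes held those of the NADH shuttles, which carry reducing equivalents into mitochondria, together with lactate dehydrogenase genes. Fitted levels were higher in DIZE libraries in 11 cases, the lactate dehydrogenases included, beside 6575 of all 13648 tested genes. The exception was Gpd2, the mitochondrial glycerol-3-phosphate dehydrogenase, with a log2 fold change of -0.23 (adjusted p = 0.344). Over the 12 genes the median was 0.17. None passed, 5 of the 12 had an unadjusted p under 0.05, beside 19.4% of all tested genes, and 3 lay wholly higher in DIZE libraries, beside 7.17%. Gpd1, the cytosolic glycerol-3-phosphate dehydrogenase, had 119.6, 151.4, 95.1 and 109.2 CPM in DIZE 1 to 4 and 48.9, 92.7, 75.8 and 70.7 CPM in vehicle 1 to 4. Its log2 fold change was 0.72 (adjusted p = 0.116), and 0.53 with the GC and length trends removed. Got2, the mitochondrial aspartate aminotransferase, averaged 1097 ± 46.1 CPM in DIZE libraries and 773 ± 178 CPM in vehicle libraries (SD, n = 4 each), with 0.51 (adjusted p = 0.140). Its lowest value, 542.6 CPM, was in vehicle 1, where the cardiomyocyte sum was lowest. With the GC and length trends removed Got2 had 0.39. Got1 had 0.34 (adjusted p = 0.201) and Gpd1l 0.29 (adjusted p = 0.169).

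Of 6 suppliers of mitochondrial NADPH beside Nnt, 0 passed and the median was 0.03. Aldh1l2, of mitochondrial folate metabolism, averaged 8.72 CPM in DIZE libraries and 14.4 CPM in vehicle libraries. Its groups lay apart, beside 5.26% of all tested genes wholly lower in DIZE libraries. Its log2 fold change was -0.72 ± 0.20 (adjusted p = 0.118). It was -0.37 among the libraries with db in their titles and -1.02 among those without it (adjusted p = 0.0140, with 9.57% of all genes called). Mthfd2l had -0.23, Me3 0.12 and Idh2 0.08. Of 12 mitochondrial proteins known as SIRT3 targets, 0 genes passed and the median was 0.10. Acss1, the mitochondrial acetyl-CoA synthetase, had 0.41 (adjusted p = 0.146) and Acadl, of fatty acid oxidation, 0.38 (adjusted p = 0.151), both with groups apart. So 2 of the 12 lay wholly higher in DIZE libraries, beside 7.17% of all tested genes. Sdha, a subunit of succinate dehydrogenase, had 0.21 (adjusted p = 0.293).

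Nampt transcription is known to follow the circadian clock, and the 13 clock genes differed in both directions with 0 past the threshold. Of the 13, 6 had an unadjusted p under 0.05, beside 19.4% of all tested genes, and 2 lay wholly higher and 3 wholly lower in DIZE libraries, beside 7.17% and 5.26%. Arntl, which encodes BMAL1, had 8.06, 6.45, 13.4 and 13.1 CPM in DIZE 1 to 4 and 2.98, 2.18, 4.02 and 1.47 CPM in vehicle 1 to 4. Its log2 fold change was 1.97 ± 0.33 (adjusted p = 0.0707). Npas2, its partner, averaged 9.69 CPM in DIZE libraries and 2.78 CPM in vehicle libraries (log2 fold change 1.82, adjusted p = 0.0936). Per3 and Nr1d2, of the repressing limb, had -0.77 (adjusted p = 0.0707) and -0.70 (adjusted p = 0.0959). All 4 had groups apart and passed by DESeq2, which called 4.45% of its genes. The adjusted p by DESeq2 was 1.74e-05 for Arntl, 0.00293 for Npas2, 1.14e-05 for Per3 and 0.00841 for Nr1d2. Other genes of the repressing limb went both ways by edgeR, with log2 fold changes of -0.75 for Per2, 0.02 for Cry1 and 0.18 for Cry2. Per1 had 0.55 and Nr1d1 0.84, and Clock, of the activating limb, had -0.08. Groups overlapped for each of these. Arntl and Npas2 were highest in DIZE 3 and 4, which had the lowest Nampt. Whether this bears on Nampt was not tested.

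Of 13 regulators known to act on Nmrk2, Nampt or Sirt1, 0 passed and the median was 0.06. Ppara, the fatty-acid-sensing receptor, had 17.9, 23.6, 7.98 and 12.1 CPM in DIZE 1 to 4 and 25.4, 31.7, 46.1 and 46.6 CPM in vehicle 1 to 4, a log2 fold change of -1.29 (adjusted p = 0.0993). Among the libraries with db in their titles it was -0.45 (adjusted p = 0.588). Among those without it the estimate was -2.20 (adjusted p = 0.00201, with 9.57% of all genes called). Esrra, a receptor of mitochondrial gene programs, had 0.47 (adjusted p = 0.0955). Hif1a, of the hypoxia response, averaged 148.7 CPM in DIZE libraries and 99.4 CPM in vehicle libraries (log2 fold change 0.58, adjusted p = 0.0815). Srf, of muscle gene transcription, averaged 119.6 CPM in DIZE libraries and 76.1 CPM in vehicle libraries (0.65, adjusted p = 0.126). DESeq2, which called 4.45% of its genes, called all 4. Its adjusted p was 0.00489 for Ppara, 0.00484 for Esrra, 0.000184 for Hif1a and 0.0358 for Srf. These 4 have the smallest unadjusted p of the list, and they were its only genes with groups apart. So 3 of the 13 lay wholly higher and 1 wholly lower in DIZE libraries, beside 7.17% and 5.26% of all tested genes.

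Among 9037 genes with a mean of at least 10 CPM, the 5 whose log2 level was most like that of Nmrk2 over the 8 libraries were Sh3bp5, Mmp14, Armcx5, Il4ra and Nim1k. Their Pearson r was 0.929, 0.926, 0.908, 0.907 and 0.895, and 0.780, 0.766, 0.664, 0.808 and 0.640 on deviations from group means. These r describe 8 libraries that share a group difference and library composition. The genes were picked by the first r in these libraries, so the second r is not an independent check. Mmp14, a membrane-bound metalloprotease, had 37.5, 34.9, 47.4 and 43.2 CPM in DIZE 1 to 4 and 25.8, 18.3, 32.7 and 25.5 CPM in vehicle 1 to 4, low in vehicle 2 as Nmrk2 was. No other NAD gene was among them, and Nmrk1 and Nnt lay below the mean required. Over the 8 libraries r with Nmrk2 was -0.616 for Nampt, 0.479 for Nmnat3, 0.409 for Parp1 and 0.157 for Nmnat1. On deviations from group means r was -0.224 for Nampt, 0.122 for Nmnat3, -0.366 for Parp1 and -0.803 for Nmnat1.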

How the data were processed

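Libraries were made from poly(A)-selected heart RNA with a stranded kit and sequenced as read pairs, per the labels' protocols. Per the submitters' processing notes, the genome build was mm10 and the tools included HTSeq 0.6.1p1, STAR 2.7.3, R 4.1 and edgeR; no source used here gives the annotation release or the strand setting. The authors deposited unnormalized counts of reads for each Ensembl gene, and 55141 of 55487 IDs were matched to symbols.

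From these counts, edgeR 4.0.16 (R 4.3.3) fitted DIZE against vehicle, 4 libraries each, with TMM factors, filterByExpr (minimum count 10, total 15), the robust two-sided quasi-likelihood test and Benjamini-Hochberg adjustment over 13648 genes at 0.05. All adjusted p-values are from this fit unless another setting is named. Groups were taken from the treatment label, and library numbers follow accession order. The most alike libraries differed by a chi-square of 5.54 per degree of freedom, so none was a duplicate. Gene models are GENCODE on GRCm38, and promoters are RefSeq on GRCm38.p6.

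The members and lists were chosen with earlier results of these data known. Named are all 10 members, overlapping genes with reads enough to be tested, up to 4 tested genes per list with the smallest unadjusted p, and the 5 genes most like Nmrk2; 1 gene that this rule names is not reported here. Genes of the tryptophan pathway other than Afmid, and single marker genes, were named after their values were seen. So were Gpd2, Clock, Per1, Per2, Cry1, Cry2 and Nr1d1. Correlations used log2 of CPM plus 1. Alternatives were other size factors (DESeq2's and upper quartile), DESeq2 1.42.0, limma-voom (limma 3.58.1), no filter, a filter of 1 CPM in 4 libraries, GC and length offsets, title form as a block or taken alone, the title number as a block, and omitting single libraries in turn.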

Additional observations from a re-analysis of the deposited data

Results flagged for a closer look

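Each value here lay apart from the other 3 libraries of its group by Dixon's criterion, in 6 of 102 groups examined, and chance alone marks about 0.05 of such groups. Sirt1 in DIZE 3 was 21.42 CPM, against 28.42 to 29.54 CPM in the other DIZE libraries. Ric8a in vehicle 1 was 38.48 CPM, against 30.11 to 30.71 CPM. Sirt5 in vehicle 2 was 53.48 CPM, against 43.65 to 44.95 CPM, and Gpd1l in the same library was 114.1 CPM, against 101.6 to 103.2 CPM. Hif1a was 124.3 CPM in DIZE 1, against 155.7 to 157.6 CPM in the other DIZE libraries, and in vehicle 3 it was 106.5 CPM, beside 96.62 to 97.73 CPM for the rest of the vehicle group.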

How the results depend on the processing

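The count of genes past the threshold, 5 in the edgeR test, was 606 with DESeq2, 386 with no filter on low counts, 40 with the GC and length trends removed, 9 with title form as a block, 0 among libraries with db in their titles, 1349 among those without it, and 0 to 240 with 1 library left out (240 without vehicle 2). The count of NAD genes past it, 0, was 1 with DESeq2 and 1 with no filter (Nmrk2 both times), 2 among libraries without db in their titles (Nmrk2 and Nampt) and 0 with any library left out. Title numbers repeat within groups and same-numbered libraries of different groups did not deviate together (correlations of -0.138 to 0.031 over 5 such pairs), so the numbers were not taken to pair the libraries; with the number as a replicate block 0 genes and 0 NAD genes passed. The cause of these shifts was not tested. Of the 51 genes that the naming rule gave, 45 kept their sign in all 19 alternatives, and 51 of the 969 values passed the threshold. The exceptions were Nmrk1 (0.04 among libraries without db in their titles), Sirt1 (0.01 with the replicate block), Sirt3 (-0.05 without vehicle 1 and up to 0.10 with another library left out), Ric8a (0.05 among libraries without db in their titles), Afmid (0.51 in those libraries, and -0.42 to 0.15 with 1 library left out) and Idh2 (-0.03 with GC and length trends removed, -0.02 among libraries with db in their titles). Nmrk1, Nnt and the tryptophan pathway rest on few reads, which limits what can be seen in them.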
